A study of Homo sapiens with 9 samples.

Results

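The TEAD transcription factors and the Hippo pathway around them were examined in Z138, an established line of mantle cell lymphoma, a cancer of B cells. The 10 genes, chosen by name, were TEAD1, TEAD2, TEAD3, TEAD4, YAP1, WWTR1, VGLL4, LATS1, LATS2 and AMOT. Of these, 9 had a row among the 16586 genes of the expression table and 7 were abundant enough to be tested, with a CPM (count scaled to the library's total, the usual unit of RNA-seq levels) of at least 1 in at least 3 libraries. YAP1 had no row and was not analysed here, and TEAD3 and WWTR1 fell under the filter. RNA was sequenced from 3 groups with 3 libraries each: wild-type Z138, Z138 with SOX11 knocked out (SOX11KO), and SOX11KO cells given SOX11 back (SOX11KO+SOX11Rescue, here the rescue). The rescue thus carries the knockout as well, and the labels name no promoter for the returned SOX11. They do not say whether the edited cells are single clones or whether replicates were separate cultures, so p-values reflect no more than how these libraries vary, and a clone cannot be told apart from its genotype. Each group had 1 library in each of 3 batches named by the labels.

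Hippo is a kinase cascade. LATS1 and LATS2, activated by upstream kinases with MOB1 adaptors, phosphorylate the coactivators YAP1 and WWTR1 (also called TAZ) and keep them out of the nucleus. Coactivators that escape bind TEAD1 to TEAD4, the DNA-binding factors of the pathway, which do not activate well alone. VGLL4 competes for TEAD and represses, and AMOT holds YAP1 at cell junctions and in the cytoplasm. Blood cancers, unlike many epithelial ones, often have little or no YAP1. SOX11 is a transcription factor that most mantle cell lymphomas express and normal B cells do not.

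Each library held an estimated 30760000 to 40840000 reads. The targeted gene was measured first, since it checks the labels. SOX11 (ENSG00000176887.7, chromosome 2, 5692667 to 5701385, plus strand) had normalized counts of 3800, 3845 and 3003 for wild type, 901.3, 1335 and 862.2 for the knockout and 12818, 13849 and 12715 for the rescue. The groups did not overlap, and the knockout kept 29.1% of the wild-type transcript level while the rescue reached 369.8%. The rescue was therefore not a return to the wild-type level. A two-sided exact permutation test gave p = 0.1 for each pair of groups, the smallest that 3 against 3 libraries allow. The other SOXC factors, SOX4 and SOX12, were called in no comparison, but SOX12 was called lower in the rescue with batch as a block (adjusted p = 0.0231 against the knockout and 0.0161 against wild type, limma). The 6 B cell markers MS4A1, CD79A, CD79B, PAX5, CD22 and CCND1 summed to 168540 to 188340 normalized counts in wild type libraries, 160340 to 174250 in knockout libraries and 151190 to 158010 in rescue libraries. The rescue lay under both other groups in this sum, most of which was CCND1. CCND1 alone had means of 128820, 121400 and 107940 in wild type, knockout and rescue. A sum without CCND1 was not examined. Among the 6 markers, PAX5 was called higher in the rescue than in the knockout and CCND1 lower in the rescue than in wild type. These calls were lost in 5 and 11 of the 12 settings that left out a library or a batch. PAX5 had 9409, 14293 and 8795 for wild type, 6667, 9609 and 6146 for the knockout and 10830, 14921 and 11336 for the rescue, lower in the knockout in each batch. With batch as a block the knockout had PAX5 and CD79B called lower and CD22 called higher than wild type (adjusted p = 0.00011, 0.0316 and 0.00941, limma). None of the 6 was called in that comparison without the block. Under the block the rescue had PAX5 and CD22 called higher than wild type (adjusted p = 0.0485 and 0.0413, limma). It had CD79B and CCND1 called lower than wild type (adjusted p = 0.0264 and 0.014, limma). The part of these marker differences in the results was not tested. Of 10 epithelial and fibroblast markers, KRT18, COL3A1 and LUM had no row. COL1A1 lay at 703.7 to 1276 normalized counts, and the other 6 summed to 75.4 to 109 in wild type, 55.5 to 112 for the knockout and 97.8 to 118 for the rescue. COL1A1 was lower in the rescue than in the knockout (adjusted p = 0.0244, limma), with an adjusted p that ranged from 0.0145 to 0.157 when single libraries or batches were left out. The part of such cells in the results was not tested. In bulk RNA, fewer cells that express a gene and less RNA per cell cannot be told apart.

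In the wild type, TEAD4 was the main TEAD transcript. The knockout had less TEAD4 and less AMOT. With batch as a block, VGLL4 and LATS2 were called lower in the knockout too (adjusted p = 0.0389 and 0.0311, limma). The rescue had AMOT, VGLL4 and LATS2 above the knockout and TEAD2 well above both other groups, while TEAD4 was lower than wild type in both the knockout and the rescue. LATS1 and TEAD1 were called in none of the 3 comparisons. The account below gives normalized counts for each library in the order of batches 1, 2 and 3, and means with SD over n = 3 libraries. Log2 differences are on the variance-stabilized scale of the deposited values, which understates changes, most of all those of low genes. Genes of middle level are affected too. SOX11, with a wild-type mean of 3549, was 3.44-fold lower in the knockout but differed by only -1.32 on this scale. Adjusted p-values are those of limma over 11542 genes, and a gene is called at an adjusted p under 0.05.

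Between knockout and wild type, 2 of the 7 tested genes were lower and none was higher. Over all genes tested, 12.7% were called in this comparison, 7.37% lower and 5.36% higher. With batch as a block, 4 of the 7 were lower (AMOT, LATS2, TEAD4 and VGLL4), and 21.5% of all genes were called. In the rescue against the knockout, 4 of the 7 were higher, with 11.5% of all genes called higher, 10.7% lower and 22.1% in all. With the block the same count held, against 31.2% of all genes. TEAD2 passed the abundance filter through the rescue alone, so it had to differ there. Of the other 6 genes, 3 were higher and none was lower. In the rescue against wild type, 1 of the 7 was higher (TEAD2) and 1 lower (TEAD4), which without TEAD2 leaves 0 higher and 1 lower of 6, with 2.3% of all genes called higher, 1.78% lower and 4.07% in all, or 8.06% with the block. Groups that did not overlap were found for 4 of the 7 genes in each comparison (without TEAD2, for 4, 3 and 3 of the other 6), against 29.5%, 41.8% and 20.8% of all genes in the same order. The median difference of the 7 genes was -0.21 between knockout and wild type, 0.33 in the rescue against the knockout and 0.12 in the rescue against wild type. Without TEAD2 the medians were -0.23, 0.16 and 0.018. Medians over all genes tested were 0.0048, -0.0065 and -3.17e-05. The same 3 groups serve all 3 comparisons, so these counts share libraries.

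**Figure D1:**
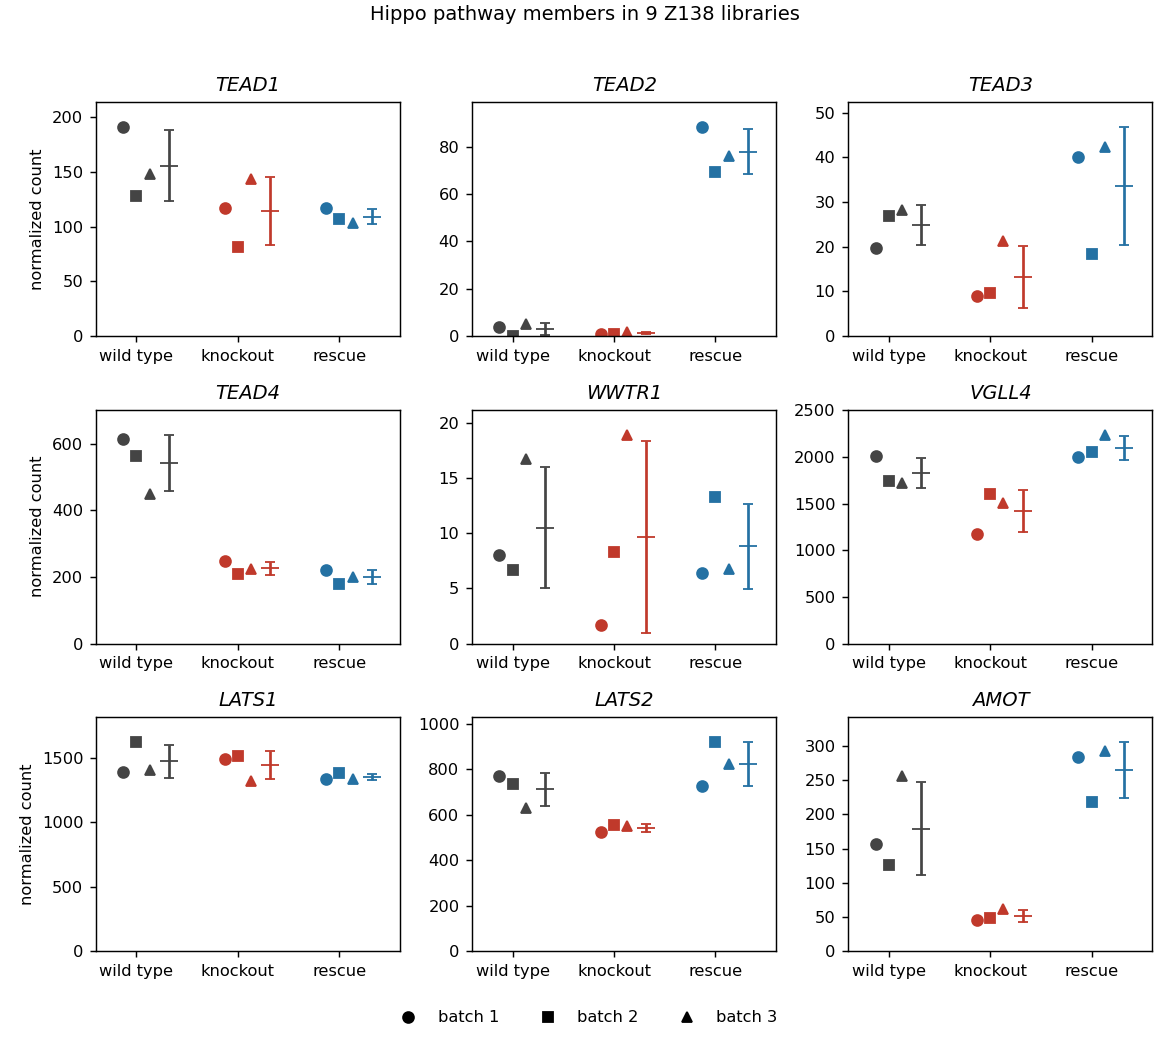
Normalized counts (vertical axis, linear, from 0) of the 9 Hippo genes in the table by group, with 1 point per library, the batch as its shape, and bars for mean ± SD (n = 3). TEAD4 has its knockout and rescue libraries between 178 and 247.2, all under the wild-type libraries, and TEAD2 is near 0 outside the rescue.

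TEAD4 (ENSG00000197905.9, chromosome 12, 2959330 to 3040673, plus strand, GRCh38) encodes a TEAD factor known best from the trophectoderm and from muscle. Its normalized counts were 614.6, 563 and 449.9 for wild type, 247.2, 207.3 and 223 for the knockout and 219.5, 178 and 199 for the rescue. All 6 edited libraries lay under all 3 wild-type libraries, and knockout and rescue overlapped. TEAD4 fell 2.4-fold from wild type to the knockout, by 0.54 on the log2 scale (SE 0.0637, adjusted p = 0.000192, limma). The rescue was 2.73-fold lower than wild type (adjusted p = 0.000279, limma). Between rescue and knockout the log2 difference was -0.06 (adjusted p = 0.523, limma). The TEAD4 calls against wild type held in every alternative run. TEAD4 was thus the only tested gene of the 7 that was called lower in the knockout and again lower in the rescue, each against wild type. AMOT, the other gene called lower in the knockout without the block, was called higher in the rescue than in the knockout.

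TEAD2 (ENSG00000074219.14, chromosome 19, 49340595 to 49362457, minus strand, GRCh38) encodes the TEAD factor of early embryos and neural progenitors. Its normalized counts were 3.785, 0 and 4.906 for wild type, 0.8243, 0.8669 and 1.654 for the knockout and 88.42, 69.36 and 76.22 for the rescue. Every rescue library stood far above every other library. In estimated reads the 3 rescue libraries held 230, the 3 knockout libraries 3 and the 3 wild-type libraries 9. The ratio of reads per depth was 77.6 for the rescue over the knockout, with a 95% counting interval of 26.2 to 379, and 27.2 over wild type, with an interval of 14.1 to 60.2. These intervals cover counting error only. The log2 difference was 0.56 against the knockout (adjusted p = 1.5e-05, limma) and 0.54 against wild type (adjusted p = 0.000103, limma). TEAD2 was tested only because it reached the filter in the rescue, so these p-values are given as a description, and the counts in each library show the difference. Between knockout and wild type the difference was -0.03 (SE 0.0492, adjusted p = 0.799, limma). With 0 to 5 reads a library in both groups, a change was not detectable at this depth. The wild type, with SOX11 at 3549 ± 474 normalized counts (SD, n = 3), had TEAD2 at 2.90 ± 2.57 (SD, n = 3).

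TEAD2 shares exon sequence with CD37, a B cell surface protein gene on the opposite strand. Of 3142 stretches of 31 bases in TEAD2 transcripts, 265 also occurred in those of CD37 on one strand or the other. The sources used here do not say which libraries kept strand. CD37 had 272.6, 448.5 and 375.2 normalized counts for wild type, 221.3, 252.5 and 281.4 in the knockout and 410.3, 497.8 and 557.4 in the rescue. It was 1.94-fold higher in the rescue than in the knockout (adjusted p = 0.00455, limma), a call lost without batch 3 (adjusted p = 0.0775). In the knockout against wild type its adjusted p was 0.123, or 0.0229 with batch as a block, and in the rescue against wild type 0.254. Wild-type libraries with 272.6 to 448.5 normalized counts of CD37 had at most 4.906 of TEAD2, and rescue libraries with 410.3 to 557.4 had 69.36 to 88.42. The part of CD37 reads in TEAD2 was not tested further.

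The promoter of TEAD2 is shown because its transcript was the one that stood out in the rescue. Sequences are from RefSeq (GRCh38.p14), in windows from 250 bases before to 50 after an annotated start, and 7 of the 9 genes in the table had at least 1 window, 14 in all. Each was searched on both strands for the SOX words ACAAAG and ACAATG and for the TEAD word GGAATG. TEAD2 has windows at separate starts. The upstream start has ACAAAG on the gene strand, its first base at position -27 from the start (chr19:49362438-49362443). The downstream start has the same word on the opposite strand, past the start (chr19:49361507-49361512), so that it reads CTTTGT on the gene strand. LATS2, which was also higher in the rescue than in the knockout, has GGAATG at position 10 (chr13:21061572-21061577) and ACAATG at position 19 (chr13:21061563-21061568), counted from the start as 1. These positions count from RefSeq starts, which differ from the ends of the GENCODE spans given for the genes. By GENCODE, where LATS2 starts at 21061547, both LATS2 words lie before the gene. TEAD2 starts there at 49362457, so its word at -27 lies inside the gene. The sequences below run 5′ to 3′ on the gene strand, the minus strand in each case, with the words in capitals.
TEAD2 upstream start, 250 bases before it, chr19:49362417-49362666: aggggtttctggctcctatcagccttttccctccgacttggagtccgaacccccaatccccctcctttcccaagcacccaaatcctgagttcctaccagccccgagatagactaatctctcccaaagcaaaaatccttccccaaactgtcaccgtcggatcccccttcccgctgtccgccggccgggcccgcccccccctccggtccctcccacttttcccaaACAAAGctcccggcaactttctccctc
TEAD2 downstream start, 30 bases around the word, chr19:49361489-49361518: tgggccCTTTGTtctggctcttctgatggc
LATS2, 30 bases around both words, chr13:21061554-21061583: gcccgtGGAATGccaACAATGtagcgaatg
At least 1 SOX word occurred in the windows of 5 of the 7 genes (TEAD2, LATS1, LATS2, VGLL4 and WWTR1), and the TEAD word in those of 1 (LATS2). Among 34796 windows of all genes, 24.5% held a SOX word and 14% the TEAD word. These are shares of windows, while the counts above are of genes, and genes with several windows have more chances. The share over all genes was not computed. AMOT and TEAD3 had neither word in their windows. A match of 6 letters is a description of the sequence and shows no binding.

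TEAD1 (ENSG00000187079.19, chromosome 11, 12674591 to 12944483, plus strand) encodes the TEAD factor with the broadest tissue range. Its normalized counts were 191.3, 128.4 and 148.1 for wild type, 117.2, 81.41 and 143.5 for the knockout and 116.9, 107.3 and 103.6 for the rescue. Wild type and knockout overlapped, and all rescue libraries lay under all wild-type libraries. None of its 3 differences was called. Against wild type the knockout differed by -0.13 (SE 0.0629, adjusted p = 0.222, limma) and the rescue by -0.14 (adjusted p = 0.301, limma).

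TEAD3 (ENSG00000007866.21, chromosome 6, 35473597 to 35497076, minus strand), best known from placenta, was too low to test. It had 19.66, 26.82 and 28.13 normalized counts for wild type, 8.994, 9.531 and 21.22 in the knockout, and 40.12, 18.44 and 42.34 in the rescue. Knockout and wild type overlapped at the edge, since the third knockout library was above the lowest wild-type library. In reads per depth, the rescue over the knockout was 2.58 with a counting interval of 1.76 to 3.87, while a fit with no filter gave an adjusted p of 0.0662 (limma). That fit called 8.6%, 15.2% and 2.93% of all genes in the knockout and rescue comparisons in the order above. In that fit the TEAD3 difference between rescue and knockout was 0.16 with an SE of 0.0523, and it was not called. The second rescue library, at 18.44, lay under the third knockout library, at 21.22.

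Levels of different TEAD genes were compared per kilobase of the longest coding transcript. On this scale the wild type had 321 ± 49.9 for TEAD4, 18.4 ± 3.796 for TEAD1, 8.34 ± 1.53 for TEAD3 and 1.19 ± 1.05 for TEAD2 (SD, n = 3). TEAD4 made up 91.9% of the TEAD sum in wild type and 88.0% in the knockout, where the order was the same. In the rescue TEAD4 stood at 117.6 ± 12.3, TEAD2 at 31.97 ± 3.96, TEAD1 at 12.9 ± 0.806 and TEAD3 at 11.27 ± 4.43. There TEAD4 made up 67.8% and TEAD2 18.4%, with TEAD2 between 17.8% and 18.7% in the 3 libraries. TEAD1 and TEAD3 in the rescue did not differ beyond their spread on this scale of the longest transcript. The summed TEAD level was 348.9 ± 50.2 for wild type, 152.0 ± 14.4 for the knockout and 173.8 ± 20.4 for the rescue (SD, n = 3). The lower TEAD sum of the knockout was therefore also seen in the rescue, with TEAD2 included. The order behind TEAD4 depends on the length used. With the median length of a gene's coding transcripts, TEAD1 in the rescue (39.0 ± 2.44) lay next to TEAD2 (36.0 ± 4.46), and TEAD2 made up 10.7% and TEAD4 73.5%. TEAD3 in the rescue was then at 14.4 ± 5.67, under TEAD1.

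**Figure D2:**
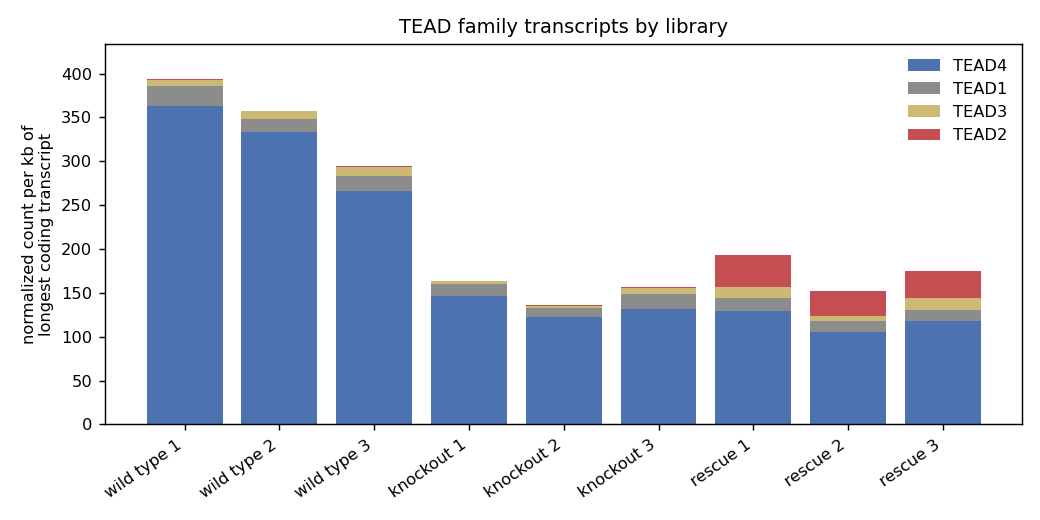
Stacked bars of the 4 TEAD genes in each of the 9 libraries, in normalized counts per kilobase of the longest coding transcript (vertical axis, from 0). TEAD4 is the largest segment in every library, and TEAD2 makes up a mean of 18.4% in the rescue against 0.358% in wild type.

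Among the partners of TEAD, WWTR1 (ENSG00000018408.14, chromosome 3, 149517235 to 149736714, minus strand) was near the limit of detection. Its normalized counts were 8.007, 6.706 and 16.75 for wild type, 1.687, 8.327 and 18.92 for the knockout and 6.399, 13.27 and 6.788 for the rescue. The groups overlapped fully, and no library reached a CPM of 1. The 3 libraries of a group held 32, 27 and 27 estimated reads in wild type, knockout and rescue. The ratio of reads per depth of the rescue over the knockout was 1.01, with a counting interval of 0.571 to 1.79. The antisense gene WWTR1-AS1 overlaps WWTR1, so these few reads need not all be its own. With YAP1 absent from the table, the 2 main coactivators of TEAD were thus either not listed or listed at a very low level.

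VGLL4 (ENSG00000144560.15, chromosome 3, 11556070 to 11771350, minus strand), the repressing partner, had 2011, 1748 and 1722 normalized counts for wild type, 1172, 1600 and 1506 for the knockout and 2000, 2060 and 2242 for the rescue. All knockout libraries lay under all other libraries, and wild type and rescue overlapped. VGLL4 was 1.47-fold higher in the rescue than in the knockout (log2 difference 0.41, adjusted p = 0.00415, limma), which was lost without batch 3 (adjusted p = 0.0696). Against wild type the knockout differed by -0.26 (SE 0.0809, adjusted p = 0.0588, limma), just short of a call. With batch as a block the adjusted p was 0.0389, without the second knockout library 0.0377 and without batch 2 0.0479. The first knockout library, at 1172, was the lowest. Without it the difference was -0.17 (adjusted p = 0.206), and without batch 1 it was -0.11 (adjusted p = 0.479). VGLL4 transcripts share 1566 of 7333 stretches of 31 bases with the overlapping ATG7, an autophagy gene, which was called in no comparison (831 ± 31.3 in wild type, 868 ± 79.7 for the knockout and 816 ± 100 for the rescue, SD, n = 3).

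LATS1 (ENSG00000131023.13, chromosome 6, 149658153 to 149718256, minus strand) had 1385, 1619 and 1408 normalized counts for wild type, 1490, 1516 and 1322 for the knockout and 1338, 1379 and 1333 for the rescue. Its adjusted p-values (limma) were 0.882, 0.488 and 0.544 for knockout against wild type, rescue against knockout and rescue against wild type. The group means were 1471, 1442 and 1350, and the libraries of wild type and knockout were interleaved.

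LATS2 (ENSG00000150457.9, chromosome 13, 20973032 to 21061547, minus strand) encodes the second LATS kinase and is itself a target of YAP1 and TEAD in other cells. Its normalized counts were 769.2, 733.6 and 629.9 for wild type, 523.7, 556.1 and 549.7 for the knockout and 727.3, 918.2 and 821.6 for the rescue. As with VGLL4, the 3 knockout libraries lay under all others and the rescue overlapped wild type. LATS2 was 1.51-fold higher in the rescue than in the knockout (log2 difference 0.33, adjusted p = 0.00414, limma), a call lost without batch 3 (adjusted p = 0.06). Against wild type the knockout differed by -0.21 (SE 0.0642, adjusted p = 0.0587, limma). With batch as a block the adjusted p was 0.0311, on log2(CPM + 1) values 0.0489 and without the third wild-type library 0.0382. In the other 11 settings that left out a library or a batch it was not called, with an adjusted p of up to 0.349 and a difference of -0.16 without batch 1. LATS1 and LATS2 were not tested against each other.

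AMOT (ENSG00000126016.15, chromosome X, 112774503 to 112840815, minus strand) encodes angiomotin, a junction scaffold that binds YAP1. Its normalized counts were 156.8, 125.6 and 256 for wild type, 45.06, 48.85 and 61.44 for the knockout and 283.5, 218.6 and 293.1 for the rescue. Knockout libraries lay under all other libraries, and the third wild-type library overlapped the rescue. AMOT fell 3.46-fold from wild type to the knockout, by 0.43 on the log2 scale (SE 0.0792, adjusted p = 0.00419, limma), a call lost without batch 1 (adjusted p = 0.0686). The rescue was 5.12-fold higher than the knockout (log2 difference 0.64, adjusted p = 0.000198, limma), which held in every alternative. Against wild type the rescue differed by 0.21 (adjusted p = 0.213, limma). Without the third wild-type library this was called (adjusted p = 0.0339). Within each of the 3 batches AMOT was lower in the knockout than in wild type and higher in the rescue than in the knockout.

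**Figure D3:**
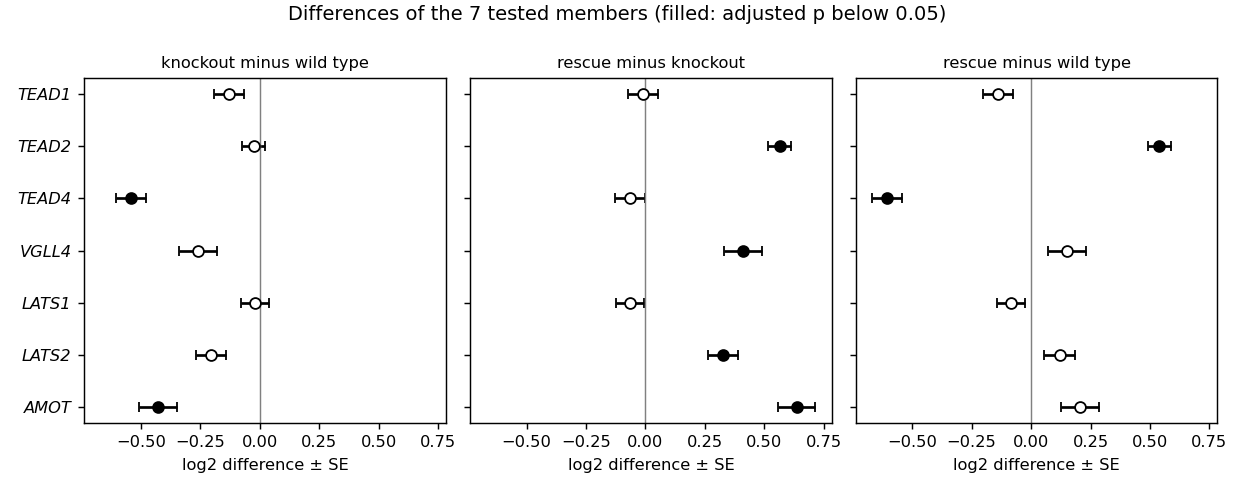
Log2 differences (horizontal axis, variance-stabilized scale) of the 7 tested genes in the 3 comparisons, with SE as bars and calls at an adjusted p under 0.05 marked. TEAD4 is at -0.54 in the knockout and -0.61 in the rescue against wild type, and TEAD2 is at 0.56 in the rescue against the knockout.

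The rest of the pathway was described from lists of its genes, each with its counts and its median difference in the order knockout against wild type, rescue against knockout and rescue against wild type. The shares and medians over all genes are those given above. Of 20 kinases and adaptors of the Hippo core, 17 were tested. In the knockout against wild type 2 were higher and 2 lower, in the rescue against the knockout 4 were higher and 2 lower, and in the rescue against wild type 2 were higher. Those 2, MAP4K4 and WWC3, lost that call in 6 and 11 of the 12 settings that left out a library or a batch. With batch as a block, 2 were higher and 3 lower in the knockout than in wild type. Under the same block the rescue had 7 higher and 2 lower than the knockout, and 4 higher and 1 lower than wild type. Medians were -0.0075, 0.14 and 0.12. In the list 11 of the 17 genes were called in no comparison. MAP4K4, a kinase that can activate LATS beside the MST kinases, had 7227, 7096 and 6785 normalized counts for wild type, 5131, 5217 and 5469 for the knockout and 8293, 8884 and 8212 for the rescue. MAP4K4 fell in the knockout (adjusted p = 0.000464, limma) and was higher in the rescue than in the knockout (adjusted p = 8.52e-06, limma), both in every alternative. TAOK3, which phosphorylates the MST kinases, went the other way and had 2413 ± 207 in wild type, 3380 ± 62.6 for the knockout and 2841 ± 11.6 for the rescue (SD, n = 3). TAOK3 rose in the knockout (adjusted p = 0.000564, limma), and its fall from knockout to rescue (adjusted p = 0.0192, limma) was lost in 8 of 12 settings that left out a library or a batch. MAP4K1, the blood cell member of the MAP4K family, had 1774 ± 28.4, 2170 ± 41.2 and 1490 ± 99.6 in wild type, knockout and rescue (SD, n = 3). It was lower in the rescue than in the knockout (adjusted p = 0.000209, limma) in every alternative, and its rise in the knockout (adjusted p = 0.0152) was lost in 4 of the 12. WWC3 and STK38L were higher in the rescue than in the knockout, with adjusted p-values of 0.000643 and 0.00304 (limma). MOB1B, an adaptor of LATS, was too (adjusted p = 0.00227, limma), except without batch 3 (adjusted p = 0.0711), and its lower level in the knockout than in wild type (adjusted p = 0.0356, limma) lost its call in 7 of the 12.

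Of 17 upstream and junction proteins, 12 were tested. In the knockout against wild type 1 was higher and 1 lower, in the rescue against the knockout 3 were higher and 1 lower, and none was called in the rescue against wild type. With batch as a block, 2 were higher and none lower in this last comparison. The knockout then had 1 higher and 2 lower than wild type, and the rescue had 4 higher and 2 lower than the knockout. Their medians were -0.061, 0.022 and 0.018. AMOTL1, a paralog of AMOT, had 1230, 1433 and 1088 normalized counts for wild type, 481.6, 580.9 and 554.1 for the knockout and 1368, 1723 and 1360 for the rescue. The knockout libraries stood apart from all others, and wild type and rescue overlapped. AMOTL1 fell 2.32-fold in the knockout (adjusted p = 0.000189, limma) and was 2.75-fold higher in the rescue than in the knockout (adjusted p = 2.78e-05, limma), in every alternative. Against wild type the rescue had an adjusted p of 0.354, so that AMOT and AMOTL1 were each called lower in the knockout, higher in the rescue than in the knockout, and not called between rescue and wild type. LLGL1, a polarity protein, was higher in the rescue than in the knockout (adjusted p = 0.000785, limma). CRB3, a polarity protein of low level here, had 51.8 ± 4.24, 82.1 ± 5.44 and 35.3 ± 13.8 normalized counts (SD, n = 3) and was lower in the rescue than in the knockout (adjusted p = 0.00624, limma), except without batch 1 (adjusted p = 0.095). The calls of RASSF5 in the knockout and of AJUBA in the rescue against the knockout were lost in 5 and 11 of the 12 settings that left out a library or a batch.

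A list of 14 genes, mostly of the STRIPAK phosphatase complex, which inhibits Hippo kinases, was tested in full. Its members need not each be inhibitors. In the knockout 1 was lower than in wild type, in the rescue 3 were higher than in the knockout and 1 was higher than in wild type, and 10 were called in no comparison. The block by batch called 2 lower in the knockout than in wild type. It called 4 higher in the rescue than in the knockout and 1 higher in the rescue than in wild type. Medians of the list were -0.040, 0.017 and 0.0039. STRIP2, a STRIPAK subunit, had 80.8, 69.0 and 146.7 mean normalized counts for wild type, knockout and rescue and was higher in the rescue than in the knockout (adjusted p = 0.00263, limma), except without batch 3 (adjusted p = 0.0671). Its call against wild type was lost in 8 of the 12 settings. Calls of STRN4, STK24 and STK25 were lost in 6, 7 and 10 of them.

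Of 10 other cofactors that TEAD or VGLL proteins can recruit, 7 were tested, with 2 lower in the knockout than in wild type and 1 higher in the rescue than in the knockout. The block by batch called 2 lower in the knockout than in wild type. It called 1 higher and 1 lower in the rescue than in the knockout, and 1 lower in the rescue than in wild type. Medians of the list were -0.084, -0.0038 and -0.068. CTBP2, a corepressor, had 1586, 1869 and 1523 normalized counts for wild type, 548.1, 828.1 and 777.2 for the knockout and 1253, 1322 and 1363 for the rescue. No libraries of different groups overlapped, with the rescue between the other groups. CTBP2 fell 2.31-fold in the knockout (adjusted p = 0.00012, limma) and was 1.83-fold higher in the rescue than in the knockout (adjusted p = 0.000977, limma), in every alternative. NCOA2, a coactivator, was lower in the knockout (adjusted p = 0.0199, limma), a call lost in 4 of the 12 settings.

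Of 22 genes that YAP1 and TEAD are known to drive in epithelial cells, 17 had a row and 8 were tested. CCN1, CCN2, ANKRD1, IGFBP3 and AMOTL2, among the usual reporters of the pathway, had no row. In the knockout 2 of the 8 were lower than in wild type, in the rescue 3 were higher than in the knockout, and none was called in the rescue against wild type. LATS2 is one of the 3. ARHGEF17, a guanine nucleotide exchange factor, had 378.2, 263.8 and 313.0 normalized counts for wild type, 72.27, 89.34 and 84.61 in the knockout, and 360.2, 329.0 and 424.4 in the rescue. Its knockout libraries stood far below all others. ARHGEF17 fell 3.88-fold in the knockout (adjusted p = 9.47e-05, limma) and was 4.52-fold higher in the rescue than in the knockout (adjusted p = 2.21e-05, limma), in every alternative. NUAK2, a kinase, had 259.9 ± 55.5, 143.0 ± 30.3 and 296.6 ± 45.8 (SD, n = 3). Its fall in the knockout (adjusted p = 0.027, limma) was lost in 6 of the 12 settings, and its rise from knockout to rescue (adjusted p = 0.00518, limma) without batch 3 (adjusted p = 0.0663). The other 5 tested targets were called in no comparison. Under the block by batch 3 of the 8 were lower in the knockout than in wild type and 3 were higher in the rescue than in the knockout. Median differences of the 8 were -0.12, 0.041 and 0.034.

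**Figure D4:**
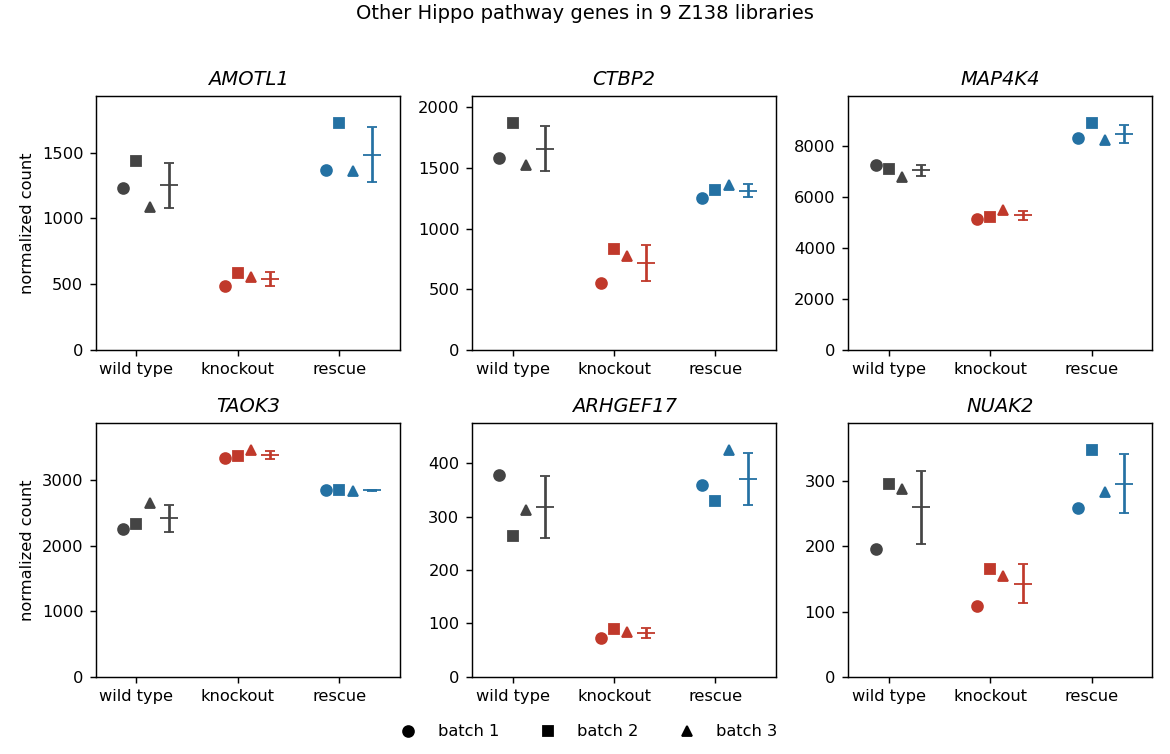
Normalized counts (vertical axis, linear, from 0) of 6 further pathway genes by group, 1 point per library with the batch as its shape, and bars for mean ± SD (n = 3). AMOTL1, CTBP2, MAP4K4, ARHGEF17 and NUAK2 are lowest in the knockout, and TAOK3 is highest there. The 6 are a selection from the genes named. Of those not drawn, MAP4K1, RASSF5 and CRB3 also had their highest mean in the knockout, and WWC3, MOB1B, LLGL1 and others their lowest.

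The tested genes whose values over the 9 libraries were most like those of TEAD2, by Pearson correlation of log2 values, were PON2 (r = 0.987), SATB1 (0.987), GCH1 (0.985), ARVCF (0.985) and RAG2 (0.980). They are a description, since they were chosen for this likeness and the libraries fall into 3 groups. PON2, a paraoxonase, had mean normalized counts of 555.7, 571.6 and 1017 in wild type, knockout and rescue. SATB1, a chromatin organizer of lymphocytes, had 327.8, 309.9 and 782.5. GCH1, which makes the cofactor tetrahydrobiopterin, had 46.1 in wild type, 42.7 in the knockout and 130.8 to 142.2 in the rescue libraries. Each was near the same level in wild type and knockout and higher in all 3 rescue libraries. ARVCF, a catenin of cell junctions, had 4.83, 3.91 and 65.3. RAG2, part of the V(D)J recombinase, had 2.577, 0 and 0 in wild type, 0 in all 3 knockout libraries, and 141.1, 62.28 and 111.7 in the rescue. ARVCF and RAG2 were, like TEAD2, close to 0 outside the rescue. SOX11 itself correlated with TEAD2 at 0.888, and 128 of the 11541 other tested genes had a higher r.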

How the data were processed

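Polyadenylated RNA of 9 Z138 libraries was sequenced as paired or single reads of 50 bases with a stranded or another TruSeq kit, per the labels' protocols. The sources used here do not say which library had which. The submitters' processing notes name kallisto 0.46.1, DESeq2 1.24.0, R 4.3.2, Trimmomatic 0.40, FastQC 0.11.9 and the build GRCh38.p13. The values the authors deposited are on a log2 scale. The file calls them log CPM, but all 9 libraries share the lowest value, 8.598, as variance-stabilized values do. Normalized counts and CPM were recovered by inverting that transform, its constant being 2 raised to that lowest value. In genes with 1 transcript, 82.5% to 98.4% of low values came out within 0.05 of whole reads, which gave the estimated depth.

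limma 3.58.1 (R 4.3.3) was fitted to the deposited log2 values of the 9 libraries with group means and a trend in the prior variance. The 11542 genes that reached a CPM of 1 in 3 or more libraries were tested and 5044 were left out, and p-values were adjusted by Benjamini and Hochberg. The fit was tested on simulated data. Exact permutation tests and counting intervals used scipy 1.17.1, and figures matplotlib 3.10.9. Gene positions are from GENCODE 29, and promoter windows are from RefSeq.

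The genes and lists were chosen with earlier results of these data known. Named genes are the 10 Hippo genes, the SOXC factors, up to 6 called genes per list with the smallest adjusted p, and the 5 genes most like TEAD2. CD37 and ATG7 were added for their overlap. Some genes of the lists are not reported here and were left out of the list counts.

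Replicate numbers equal the labels' batch, crossed with the groups, so they pair the libraries. Deviations from group means correlated at 0.187 to 0.51 between libraries of 1 number, and 9 of 9 libraries correlated best with their own number. The fit was repeated with batch as a replicate block, on log2(CPM + 1), after centring libraries on their medians, without the filter or with a stricter one, on each pair of groups alone, and without each library and each batch in turn.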

Additional observations from a re-analysis of the deposited data

How the results depend on the processing

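With the replicate block, which uses the pairing by batch, 2481 genes were called in the knockout against wild type, up from 1470, and 930 in the rescue against wild type, up from 470. Hippo genes called in the knockout against wild type then numbered 4, up from 2, and no other call on a Hippo gene changed under the block. When a CPM of 4 was required in 3 libraries TEAD2 was not tested, so 1 Hippo gene (TEAD4) was called in the rescue against wild type. Among the differences of the 7 Hippo genes, 120 of 123 values under other settings kept direction and side of the threshold. The block, the filters and the pairs of groups leave each difference as it was. Direction could therefore change only on log2(CPM + 1) or after centring. With a library or a batch left out, 237 of 252 values kept both and 15 did not. Leaving out each library or batch gave 574 to 1395 genes called in the knockout against wild type, 993 to 2970 in the rescue against the knockout and 111 to 427 in the rescue against wild type. Fewer libraries were fitted there, and the part of this in the counts was not tested. Hippo genes called ranged from 1 to 3, 2 to 4 and 2 to 3. Small uncalled differences changed sign there: TEAD2 in the knockout against wild type ranged from -0.076 to 0.0051, LATS1 from -0.065 to 0.031, and TEAD1 in the rescue against the knockout from -0.067 to 0.047. For other named genes the alternatives were applied after seeing the data, and 703 of 837 values kept the call, 134 lost it and none changed sign. For these genes only comparisons called in the first fit were followed, so a call gained could not be counted. Depth limits TEAD2, TEAD3 and WWTR1, which had under 5, under 29 and under 19 reads in each wild-type and knockout library.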

Other observations

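DCHS1, the protocadherin ligand of FAT4 upstream of Hippo, fell under the filter and was chosen here after its values were seen. It had 5.18, 5.27 and 4.97 normalized counts for wild type, 6.18, 3.17 and 4.55 for the knockout and 30.4, 52.4 and 31.3 for the rescue. All rescue libraries were above all others, as for TEAD2. In reads per depth the rescue was 8.31 times the knockout (95% counting interval 4.76 to 15.7) and 7.64 times wild type (4.51 to 13.8). A fit with no filter gave adjusted p-values of 0.000537 and 0.00286 (limma), with 15.2% and 2.93% of all genes called. Since DCHS1 was chosen by these same values, the p-values and intervals are a description. The intervals cover counting error only. FAT4, also chosen after its values were seen, had 126 normalized counts in the first wild-type library and 19.4 and 4.18 in the others, against 2.595 to 8.95 in the 6 edited libraries. PTPN14, a junction phosphatase that binds YAP1, likewise had 137.9 in the second wild-type library and 20.1 to 43.8 in the other 8.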
